A study of Saccharomyces cerevisiae with 4 samples.

Results

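The 30 genes described here encode the enzymes of ergosterol synthesis in the budding yeast Saccharomyces cerevisiae, their electron donors, their transcription factors and the proteins of sterol storage. They were chosen by gene name from the 7130 rows of a table of total RNA levels, and all 30 were found there under those names. Cells labelled Asr1-RING, with a mutated RING of Asr1, were compared with cells labelled wild type (WT), and there were 2 libraries of each. Both groups were grown in enriched medium to log phase, at an optical density near 0.8. Asr1 is a ubiquitin ligase of the RING type, and RNA polymerase II is among its known substrates. The sources used here do not name the strain, the change made within the RING or any other allele that the groups share.

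Ergosterol is the main sterol of fungal membranes and plays the part that cholesterol plays in animals. Its synthesis begins with the mevalonate pathway, which builds farnesyl diphosphate from acetyl-CoA. Squalene synthase then commits farnesyl diphosphate to sterols, and squalene is closed into lanosterol. The late steps remove methyl groups and move or add double bonds until ergosterol is reached. Several late steps need oxygen and heme, and sterol not needed in membranes is stored as steryl esters. The transcription factors Upc2 and Ecm22 activate many of these genes when sterol is scarce, through a sterol response element in the promoters.

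Levels are in FPKM, fragments scaled to transcript length and to the mapped fragments of the library, and differences are of log2(FPKM + 1), Asr1-RING minus WT. They were tested with limma over the 6892 rows that averaged 1 FPKM or more, and a gene was called at a Benjamini-Hochberg adjusted p under 0.05. All 30 genes passed that filter. The spacing of low values gave estimated depths of 42800000 and 44800000 fragments for Asr1-RING and of 47300000 and 40800000 fragments for WT. At these depths the thinnest value of any of the 30 genes rested on about 578 fragments (ARV1). The labels do not state whether the replicate libraries stem from separate cultures, and the p-values therefore reflect a spread that may be technical. ASR1 itself had 4.99 and 5.39 FPKM in Asr1-RING, against 7.05 and 6.34 FPKM in WT (limma adjusted p = 0.157), and a level per gene does not check a change within the coding sequence. Over all libraries 4 alpha-cell genes lay at 337 to 4302 FPKM and 7 a-cell genes at 2.405 to 67.22 FPKM, and 0 of these markers were called.

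The core of the sterol response element, TCGTATA, was looked for on both strands in the 500 bases before the start codon, in the RefSeq R64 genome. It was present before 9 of the 30 genes, against 7% of 6000 protein-coding genes with a window of that length. These windows can reach into a neighbouring gene. By step, it stood before 2 of 9 early mevalonate genes, 1 of 3 squalene genes, 5 of 11 late sterol genes, 1 of 2 electron donors, 0 of 2 transcription factor genes and 0 of 3 storage genes. The site of the heme-responsive factor Hap1, searched in the same way, was found before 0 of the 30 genes and before 0.35% of all. The sites below, 1 from each gene with a match on its own strand, are shown to let the surroundings of the core be compared; they are sequence matches, and whether Upc2 or Ecm22 acts through them was not tested. Each runs 5′ to 3′ on the gene's strand in the R64 build, with the core in capitals. They lie at chrXIII:20731-20761 (minus strand) for ERG13, chrVII:848787-848817 (minus) for ERG1, chrVII:610089-610119 (plus) for ERG25, chrXIII:253404-253434 (minus) for ERG6, chrXIII:667340-667370 (plus) for ERG2 and chrXII:253563-253593 (plus) for ERG3.
ERG13: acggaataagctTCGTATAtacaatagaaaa
ERG1: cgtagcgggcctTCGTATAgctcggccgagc
ERG25: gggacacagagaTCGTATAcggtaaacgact
ERG6: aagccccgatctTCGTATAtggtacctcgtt
ERG2: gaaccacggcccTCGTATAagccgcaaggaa
ERG3: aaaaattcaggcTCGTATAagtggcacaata

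ERG8, ERG28 and CYB5 held the core only on the opposite strand, and ERG13 and ERG3 held it there as well. ERG25 had a further copy on its own strand, 483 bases before the start codon.

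**Figure D1:**
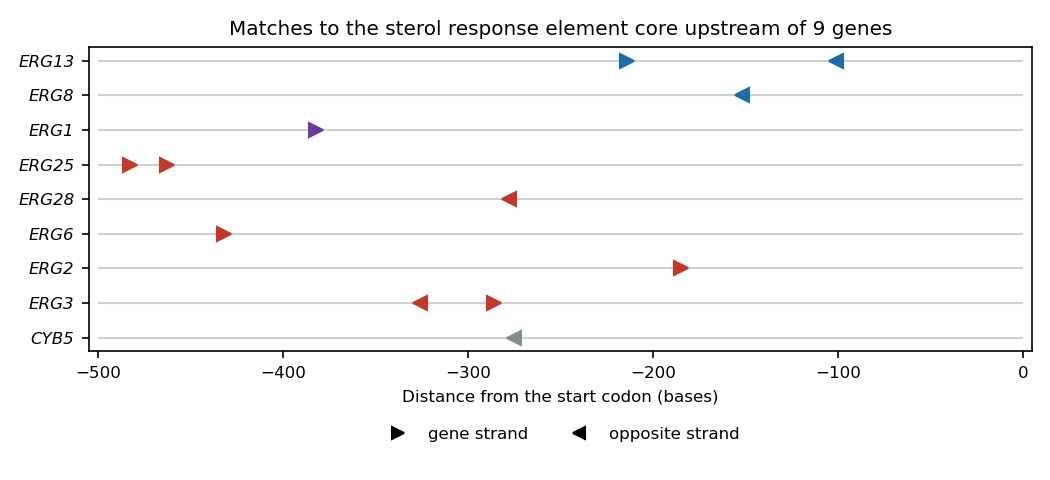
Position of each match to the sterol response element core, in bases from the start codon, in the 500 bases before 9 genes; triangles pointing right are matches on the gene's strand and those pointing left on the opposite strand. The 12 matches lie between 101 bases (ERG13) and 483 bases (ERG25) before the start codon, with no common distance.

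No gene of the pathway passed the test between Asr1-RING and WT. Of the 30 genes 0 were called higher, where 1.89% of all tested rows were (130), and 0 were called lower, where 4.95% were (341). The split over all rows depended on scaling, with 307 higher and 316 lower after quantile normalization and 70 higher and 447 lower with median centring. Among tested rows of open reading frames (ORFs), the class to which all 30 belong, 1.95% were called higher and 0.921% lower. At an unadjusted limma p under 0.05 there were 6 genes higher and 0 lower, beside 14.6% and 11.9% of all tested rows and 15.4% and 7.64% of ORFs. At an adjusted p under 0.1 there were 4 genes higher, beside 6.51% of all tested rows. The 6 were ERG26, ERG9, MVD1, ERG27, ERG13 and CYB5, and the 95% intervals of the other 24 included a difference of 0. As the samples are bulk RNA, fewer cells with a transcript and less of it per cell cannot be told apart. Over the 30 genes the intervals reached no lower than -0.48 and no higher than 0.73 on the log2 scale. The median difference was 0.05, against 0.02 over all tested rows and 0.03 over tested ORFs. Without Asr1-RING replicate 1, 4 genes were called higher (ERG26, ERG9, ERG27 and CYB5), and 781 rows in all. After quantile normalization 2 were (ERG11 and ERG13), and with a mean of at least 10 FPKM, with robust moderation or with the replicate block 1 was (ERG26).

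The 6 genes with the smallest p-values lie, in the deposited coordinates (sacCer2), at chrVII:495457-496506 (ERG26, YGL001C), chrVIII:484845-486179 (ERG9, YHR190W), chrXIV:701898-703088 (MVD1, YNR043W), chrXII:341811-342854 (ERG27, YLR100W), chrXIII:19061-20536 (ERG13, YML126C) and chrXIV:416942-417304 (CYB5, YNL111C). Each row has the length of its gene's coding span.

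Both Asr1-RING libraries lay above both WT libraries for 14 genes, where 33% of all tested rows and 34.8% of ORFs did so. Both lay below for 7 genes, where 27.2% of all tested rows and 23.7% of ORFs did so, and for 9 genes the groups overlapped. Replicates differed by a median of 0.084 on the log2 scale in Asr1-RING and 0.066 in WT, and by at most 0.314 (CYB5) and 0.227 (ARE2). Summed over the 30 genes, the level was 6360 and 6336 FPKM in Asr1-RING, against 6041 and 6080 FPKM in WT. This was 0.345% and 0.338% of the FPKM of all ORF rows in Asr1-RING, and 0.325% and 0.324% in WT.

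**Figure D2:**
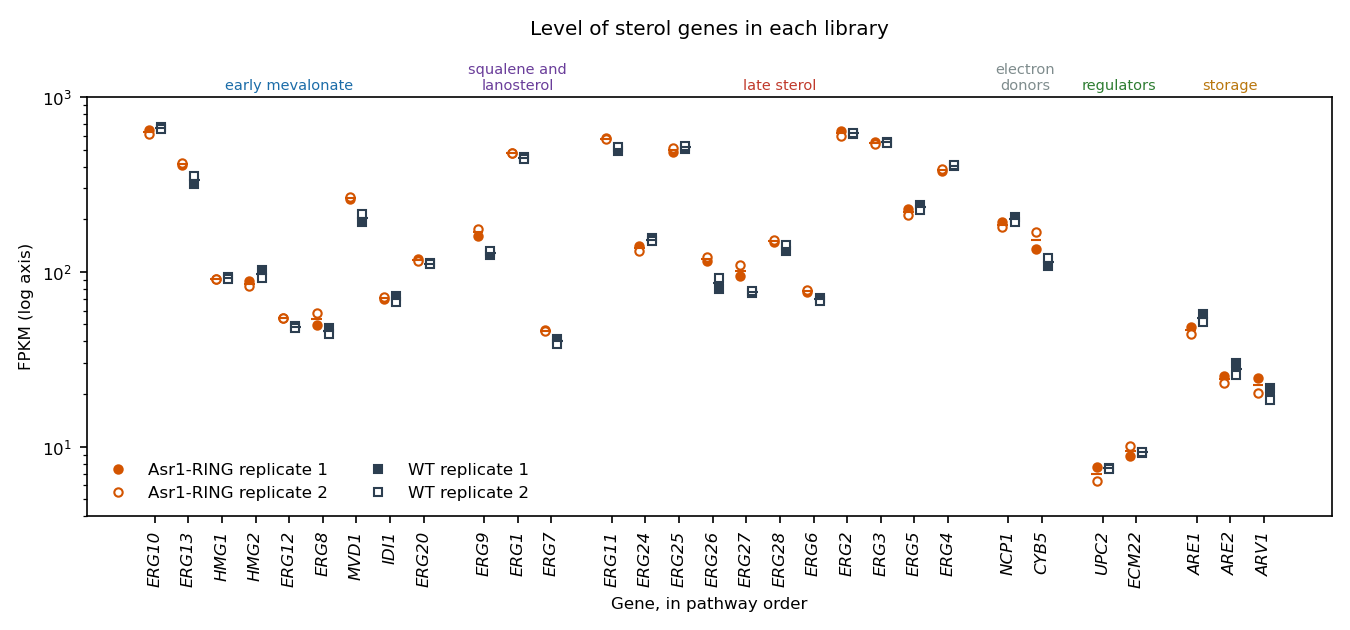
Level of the 30 genes in each library in FPKM on a log axis, in pathway order, with circles for Asr1-RING, squares for WT and short lines for the mean of 2 libraries. Levels run from 6.35 FPKM (UPC2 in Asr1-RING) to 669.5 FPKM (ERG10 in WT), a far wider range than the distance between the groups at any gene.

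The early mevalonate genes differed in level more from each other than between the groups. ERG10, the acetoacetyl-CoA thiolase that opens the pathway, had the highest mean of the 9, with 646.8 and 611.6 FPKM in Asr1-RING against 669.5 and 654.0 FPKM in WT (log2 difference -0.07, limma adjusted p = 0.647). ERG13, the HMG-CoA synthase of the next step, had 407.4 and 416.8 FPKM in Asr1-RING against 316.7 and 353.8 FPKM in WT. Both Asr1-RING libraries were above both WT libraries, and the difference of 0.30 on the log2 scale did not pass (SE 0.099, limma adjusted p = 0.131).

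HMG-CoA reductase, which makes mevalonate and is the best known control point of the pathway, has a pair of isoenzymes in yeast. HMG1 had 90.4 and 91.3 FPKM in Asr1-RING against 93.5 and 90.5 FPKM in WT, and the groups overlapped (log2 difference -0.02, 95% interval -0.24 to 0.20). HMG2, whose protein is degraded when products of the pathway build up, had 88.2 and 82.4 FPKM in Asr1-RING against 102.5 and 92.6 FPKM in WT. Both Asr1-RING libraries were below both WT libraries (log2 difference -0.19, SE 0.101, limma adjusted p = 0.287). The ratio of HMG1 to HMG2 was 1.02 and 1.11 in Asr1-RING and 0.912 and 0.978 in WT. The genes share 81.1% identity over 1201 aligned bases in R64, and whether any fragments matched both was not tested.

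Below mevalonate, the kinase genes ERG12 and ERG8 had the lowest means of the early group, at 54.5 ± 0.395 and 53.9 ± 5.87 FPKM in Asr1-RING against 48.25 ± 0.632 and 45.99 ± 2.34 FPKM in WT (SD, n = 2 each). MVD1, the decarboxylase that yields isopentenyl diphosphate, stood several-fold above them, with 259.9 and 266.1 FPKM in Asr1-RING against 191.5 and 213.2 FPKM in WT. Its means were 1.30-fold apart with no overlap between the groups (log2 difference 0.38, SE 0.098, 95% interval 0.14 to 0.62, limma adjusted p = 0.0807). IDI1, the isomerase, averaged 71.1 ± 1.40 FPKM in Asr1-RING and 69.85 ± 3.39 FPKM in WT. ERG20, the farnesyl diphosphate synthase, averaged 117.1 ± 1.80 FPKM in Asr1-RING and 111.1 ± 1.09 FPKM in WT (SD, n = 2 each), and neither was called. Over the 9 early genes 6 differences were above 0 and 3 below, with a median of 0.08.

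All 3 genes between farnesyl diphosphate and lanosterol had both Asr1-RING libraries above both WT libraries, and 0 of 3 were called. The same position was seen in 34.8% of tested ORFs, and 1.95% of tested ORFs were called higher. ERG9, the squalene synthase at which the sterol branch leaves the other uses of farnesyl diphosphate, had 161.1 and 176.3 FPKM in Asr1-RING against 125.0 and 131.3 FPKM in WT. This is a 1.32-fold higher mean (log2 difference 0.39, SE 0.097, 95% interval 0.15 to 0.63, limma adjusted p = 0.0719). ERG1, the squalene epoxidase that terbinafine inhibits, had 481.2 and 480.3 FPKM in Asr1-RING against 453.5 and 439.7 FPKM in WT (log2 difference 0.11, limma adjusted p = 0.477). ERG7, the lanosterol synthase, had 46.4 and 45.7 FPKM in Asr1-RING against 41.4 and 38.8 FPKM in WT (log2 difference 0.20, limma adjusted p = 0.24). The row of ERG7 overlaps that of YHR071C-A, and no source used here says whether strand was used in counting.

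The late sterol genes held 4 of the 5 highest mean levels of the pathway in Asr1-RING, those of ERG2, ERG11, ERG3 and ERG25. ERG11, the lanosterol demethylase that azole drugs inhibit, had 581.9 and 575.4 FPKM in Asr1-RING against 493.6 and 514.7 FPKM in WT, without overlap (log2 difference 0.20, SE 0.088, limma adjusted p = 0.22). ERG24, the reductase of the step after it, had 141.1 and 131.8 FPKM in Asr1-RING against 155.2 and 149.1 FPKM in WT. Here both Asr1-RING libraries were the lower ones (log2 difference -0.16, SE 0.092, limma adjusted p = 0.333).

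The complex that removes the paired methyl groups of the sterol ring consists of Erg25, Erg26 and Erg27, held together by Erg28, and its genes differed from each other. ERG25, the oxidase, had 486.6 and 511.6 FPKM in Asr1-RING against 506.1 and 522.9 FPKM in WT, and the groups overlapped (log2 difference -0.04, 95% interval -0.27 to 0.18). ERG26, the dehydrogenase and decarboxylase, had 114.7 and 122.0 FPKM in Asr1-RING against 80.01 and 92.01 FPKM in WT. Its difference of 0.46 was the largest of the 30 genes (SE 0.108, 95% interval 0.19 to 0.73, 1.38-fold higher mean), and its limma adjusted p was 0.0644. It was called with a mean of at least 10 FPKM (limma adjusted p = 0.0498), with robust moderation (0.0442), with the replicate block (0.0489) and without Asr1-RING replicate 1 (0.0312), and its adjusted p over all 18 alternatives ran up to 0.47. ERG27, the ketoreductase, had 94.4 and 108.7 FPKM in Asr1-RING against 75.9 and 77.7 FPKM in WT (log2 difference 0.39, SE 0.105, limma adjusted p = 0.086). The row of ERG27 overlaps that of YLR101C, on the other strand, which had 156.5 and 189.1 FPKM in Asr1-RING against 124.8 and 137.2 FPKM in WT. The rows share 288 of the 1044 bases of ERG27, and fragments from that stretch cannot be assigned to either without strand. ERG28, the scaffold, averaged 150.1 ± 3.36 FPKM in Asr1-RING and 136.3 ± 7.30 FPKM in WT (SD, n = 2 each).

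After demethylation, ERG6 adds a methyl group to the side chain, ERG2 moves a double bond, and ERG3, ERG5 and ERG4 complete ergosterol. ERG6 averaged 78.0 ± 1.56 FPKM in Asr1-RING and 69.7 ± 2.14 FPKM in WT (SD, n = 2 each), without overlap and not called (limma adjusted p = 0.305). ERG2 averaged 620.6 ± 31.2 FPKM in Asr1-RING and 618.5 ± 5.91 FPKM in WT, a log2 difference of 0.00 with a 95% interval of -0.22 to 0.23. ERG3, the desaturase, had 554.3 and 534.9 FPKM in Asr1-RING against 553.2 and 548.5 FPKM in WT, and the groups overlapped (log2 difference -0.02). Of the 30 genes, ERG2 had the difference nearest to 0. ERG5, the other desaturase, averaged 219.3 ± 11.2 FPKM in Asr1-RING and 233.3 ± 9.90 FPKM in WT. ERG4, the reductase of the last step, had 376.1 and 387.5 FPKM in Asr1-RING against 405.2 and 405.7 FPKM in WT, with both Asr1-RING libraries below (log2 difference -0.09, limma adjusted p = 0.569). Of the 11 late genes 6 differences were above 0 and 5 below, with a median of 0.00.

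**Figure D3:**
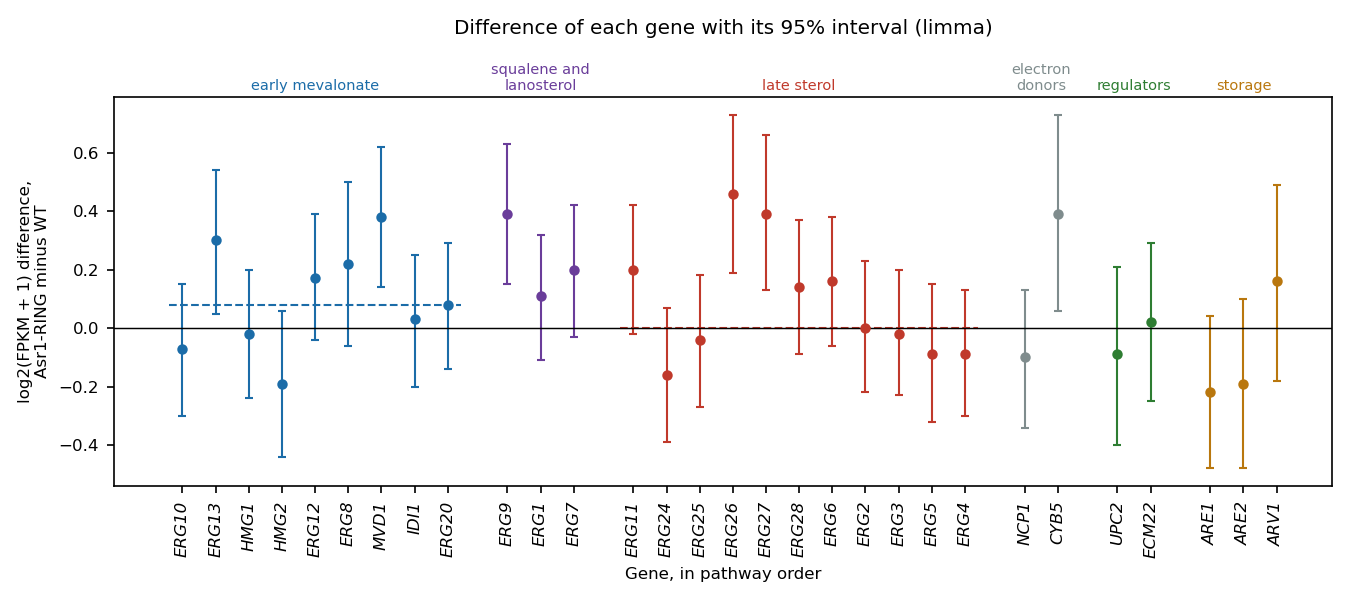
Difference of log2(FPKM + 1), Asr1-RING minus WT, for each gene with its 95% interval from limma; dashed lines mark the medians of the early mevalonate genes (0.08) and late sterol genes (0.00). The intervals of ERG13, MVD1, ERG9, ERG26, ERG27 and CYB5 lie above 0, and none lies below 0.

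Set against each other, the early and late steps differed by less than their spread. The median difference was 0.00 over the 11 late genes and 0.08 over the 9 early ones, and single genes ran from -0.16 to 0.46 in the late group and from -0.19 to 0.38 in the early group. Within a library, the mean log2(FPKM + 1) of the late genes exceeded that of the early genes by 0.853 and 0.847 in Asr1-RING and by 0.841 and 0.882 in WT. The Asr1-RING values lay between the WT values, so the balance between early and late steps did not separate the groups. Summed levels of the late genes were 3444 and 3413 FPKM in Asr1-RING against 3326 and 3369 FPKM in WT. Those of the early genes were 1785 and 1769 FPKM in Asr1-RING against 1654 and 1674 FPKM in WT. The order of the medians depended on scaling. After quantile normalization of all rows the late median was 0.28 and the early one 0.06, and with ORF rows alone normalized in that way both were -0.05.

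**Figure D4:**
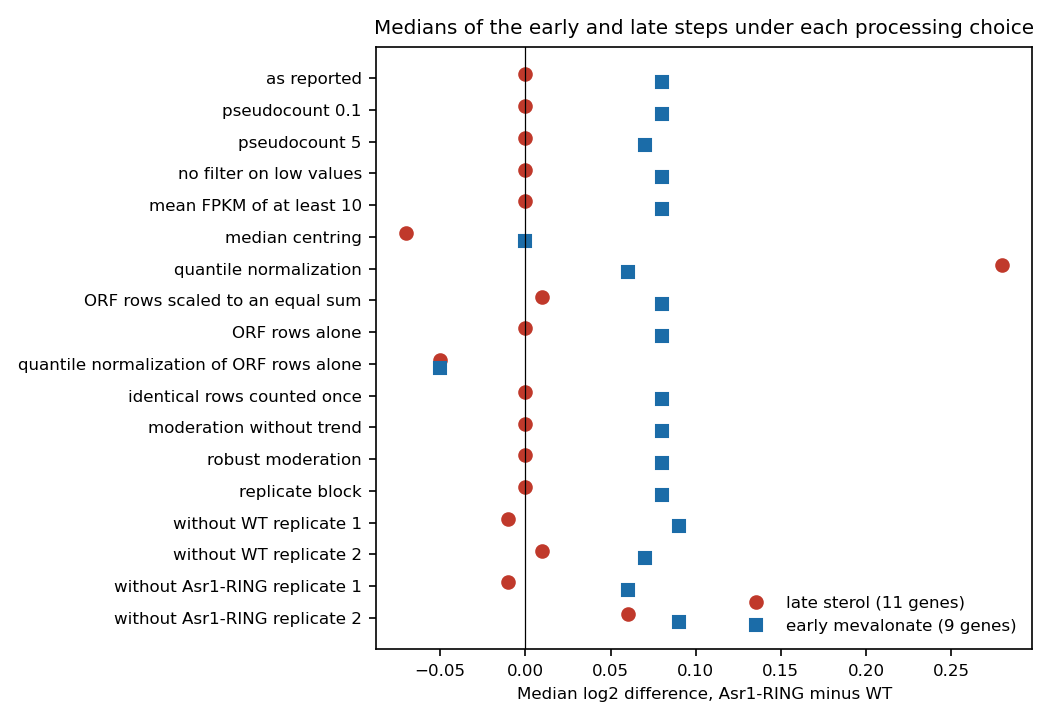
Median log2 difference, Asr1-RING minus WT, of the 11 late sterol genes (circles) and the 9 early mevalonate genes (squares) as reported and under each processing alternative. The late median is the higher one after quantile normalization alone (0.28 against 0.06), and both are -0.05 when ORF rows alone are normalized in that way.

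**Figure D5:**
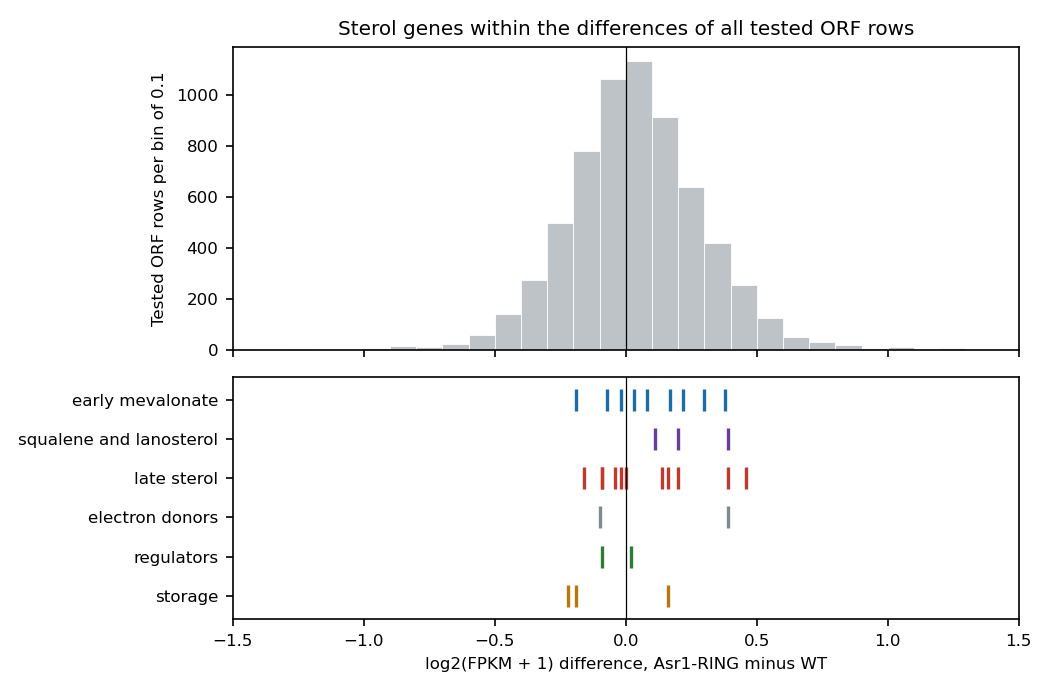
Top, number of tested ORF rows per bin of log2 difference, Asr1-RING minus WT, with 22 rows beyond the plotted range left out; bottom, 1 tick per sterol gene by step. The 30 genes fall between -0.22 (ARE1) and 0.46 (ERG26), within the range of the ORF rows. Some lie beyond the lower and upper quartiles of the tested ORF rows, -0.12 and 0.19.

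The electron donors of the pathway pointed opposite ways. NCP1, the P450 reductase that serves Erg11 and Erg5, had 192.7 and 179.7 FPKM in Asr1-RING against 206.4 and 193.5 FPKM in WT (log2 difference -0.10, limma adjusted p = 0.536). CYB5, the cytochrome b5 that can feed electrons to the same oxidations, had 134.9 and 167.9 FPKM in Asr1-RING against 108.4 and 120.7 FPKM in WT. Its Asr1-RING libraries were both higher but differed the most from each other among the 30 genes (log2 difference 0.39, SE 0.135, limma adjusted p = 0.14).

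The transcription factor genes had the lowest levels of the 30, and both overlapped between the groups. UPC2 had 7.67 and 6.35 FPKM in Asr1-RING against 7.55 and 7.48 FPKM in WT (log2 difference -0.09, 95% interval -0.40 to 0.21). ECM22 had 8.81 and 10.1 FPKM in Asr1-RING against 9.23 and 9.36 FPKM in WT (log2 difference 0.02, 95% interval -0.25 to 0.29). Their RNA levels do not measure the activity of the proteins, which also depends on sterol binding. Among the genes they may act on, the 9 with the TCGTATA core had a median log2 difference of 0.14 and the 21 without it 0.02. None of either set was called. The first median ranged from 0.01 to 0.28 over the processing alternatives and the second from -0.06 to 0.03.

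The genes of steryl ester synthesis were both lower in Asr1-RING without passing the test. ARE1 had 48.5 and 44.3 FPKM in Asr1-RING against 57.3 and 51.3 FPKM in WT (log2 difference -0.22, SE 0.106, limma adjusted p = 0.247). ARE2, the major sterol acyltransferase of aerobic cells, had 25.4 and 23.05 FPKM in Asr1-RING against 30.1 and 25.6 FPKM in WT (log2 difference -0.19, SE 0.118, limma adjusted p = 0.349). In both, the groups did not overlap, and 23.7% of tested ORFs were lower in Asr1-RING in this way. The ratio of ARE1 to ARE2 was 1.91 and 1.92 in Asr1-RING and 1.90 and 2.00 in WT. The row of ARE1 shares 389 bases with that of YCR049C and 298 bases with that of YCR050C, both on the other strand. YCR049C averaged 6.41 FPKM in Asr1-RING against 8.07 FPKM in WT (log2 difference -0.29). YCR050C averaged 93.3 FPKM in Asr1-RING against 107.9 FPKM in WT (log2 difference -0.21). Neither was called, and fragments from the shared stretches cannot be assigned to either gene without strand. ARV1, a membrane protein needed for sterol distribution, had 24.8 and 20.4 FPKM in Asr1-RING against 21.7 and 18.55 FPKM in WT, and overlapped between the groups (log2 difference 0.16, 95% interval -0.18 to 0.49).

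Genes around the pathway were taken from 10 lists that hold none of the 30, and 4 single genes were called. Over all tested ORFs 1.95% were called higher and 0.921% lower, and whether the lists depart from these shares was not tested. In the list of sterol uptake, export and transfer 1 of 22 genes rose and 0 fell. This was DAN1, a cell wall mannoprotein needed for sterol uptake when oxygen is lacking, with 2.26 and 2.10 FPKM in Asr1-RING against 0.783 and 0.558 FPKM in WT (log2 difference 0.93, SE 0.151, limma adjusted p = 0.0225). Its lowest value rested on an estimated 16 fragments. The uptake transporters AUS1 and PDR11 were not called, at 22.4 and 5.30 FPKM on average in Asr1-RING against 25.2 and 5.42 FPKM in WT. The DAN1 call ended without WT replicate 1 (limma adjusted p = 0.0661) and without WT replicate 2 (limma adjusted p = 0.104).

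Of 13 further transcription factors of the sterol and oxygen response 0 rose and 1 fell. HAP5, a subunit of the CCAAT-binding factor, had 7.09 and 5.46 FPKM in Asr1-RING against 10.85 and 10.35 FPKM in WT (log2 difference -0.68, SE 0.139, limma adjusted p = 0.0467). That call ended without either WT library (limma adjusted p = 0.324 and 0.214) and without Asr1-RING replicate 2 (limma adjusted p = 0.0543). HAP1, which senses heme, and ROX1, the repressor of hypoxic genes, were not called.

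In sphingolipid synthesis, whose products associate with sterols in membranes, 1 of 21 genes rose and 0 fell. SUR1, a subunit of mannosylinositol phosphorylceramide synthase, had 98.4 and 135.2 FPKM in Asr1-RING against 64.6 and 58.9 FPKM in WT (1.89-fold, log2 difference 0.89, limma adjusted p = 0.0355). Without WT replicate 1 or WT replicate 2 it was not called (limma adjusted p = 0.172 and 0.207). In the list of azole export 0 of 8 rose and 1 fell. The transporter gene AZR1 had 7.55 and 15.45 FPKM in Asr1-RING against 45.95 and 47.3 FPKM in WT (log2 difference -2.01, SE 0.293, limma adjusted p = 0.0158), a call that ended without either WT library (limma adjusted p = 0.0974 and 0.085). PDR5, the main azole pump, was not called. Other processing ended these calls as well. Without a filter on low values AZR1, HAP5 and SUR1 were not called (limma adjusted p = 0.0969, 0.113 and 0.112). With ORF rows alone DAN1, HAP5 and SUR1 were not called (limma adjusted p = 0.0513, 0.0662 and 0.0585), and with those rows quantile normalized none of the 4 was, with AZR1 at 0.0562, DAN1 at 0.0633, HAP5 at 0.0799 and SUR1 at 0.0925. HAP5 was not called with identical rows counted once (limma adjusted p = 0.0563), nor AZR1 with robust moderation (limma adjusted p = 0.0512).

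The other 6 lists held no called gene. Heme is the cofactor of Erg11 and Erg5. Of 10 genes of heme synthesis, delivery and breakdown, the smallest p was that of HEM13 (limma adjusted p = 0.104). HEM13 had 139.8 and 143.7 FPKM in Asr1-RING against 113.0 and 116.5 FPKM in WT. Among 7 genes of acetyl-CoA supply and use, the smallest p was that of ALD6, a cytosolic aldehyde dehydrogenase (limma adjusted p = 0.0608). ALD6 had 666.2 and 777.8 FPKM in Asr1-RING against 453.7 and 528.0 FPKM in WT. Of 16 genes for the turnover of HMG-CoA reductase and squalene epoxidase, it was that of CDC48, the ATPase that extracts ubiquitinated proteins (limma adjusted p = 0.0729). CDC48 had 203.8 and 258.1 FPKM in Asr1-RING against 155.2 and 160.4 FPKM in WT. In all 3 of these genes both Asr1-RING libraries lay above both WT libraries, as in 34.8% of tested ORFs. Picking the smallest p of a list favours genes without overlap between the groups.

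Among 12 tested genes of the other branches from isopentenyl and farnesyl diphosphate the smallest p was that of COQ1, the prenyl transferase of coenzyme Q, which had a mean 1.37-fold higher in Asr1-RING (limma adjusted p = 0.071). Of 5 genes of steryl ester hydrolysis and sterol acetylation it was that of YEH1, a steryl ester hydrolase, with a 1.31-fold higher mean (limma adjusted p = 0.11). Of 14 genes of neutral lipid synthesis, breakdown and droplets it was that of DGA1, a diacylglycerol acyltransferase, with a 1.20-fold higher mean (limma adjusted p = 0.165). The median log2 differences of the 10 lists ran from -0.09 for sterol uptake, export and transfer to 0.23 for ester hydrolysis and acetylation, beside 0.02 for all tested rows.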

How the data were processed

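Per the labels' protocols, RNA came from a hot acid phenol extraction, and ribosomal RNA was removed after DNase treatment and before library construction. The authors deposited 1 table of FPKM values per gene and library; the submitters' processing notes name TopHat2, Cufflinks and the build sacCer2, used here for the coordinates of rows. Their versions, the annotation, strand handling and filters: not given in the sources used here. Sample titles gave the groups and replicate numbers, and columns were tied to samples by their description labels, with 0 value columns unused.

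FPKM values are not counts, so log2(FPKM + 1) was tested with limma (trend on mean level; 2 residual and 3.71 prior df) over the 6892 rows averaging 1 FPKM or more, with Benjamini-Hochberg adjustment over all of them. The test was checked on simulated data. Depths were estimated from ORF rows of 350 to 3000 bp as the depth at which 85.9% to 90.2% of low values came out as whole fragments (tolerance 0.1), with lengths shortened by 202 bp; they served no test. List names missing from the table were matched through RefSeq synonyms (8 names); 1 of 131 names stayed unmatched. Promoters were read by gene identifier from the R64 annotation and genome, where the gene span equals the coding span, so the start is the start codon; no coordinates of the 2 builds were mixed. Similarity between genes was measured with BLAST 2.17.0, and 0 of the 30 genes had a copy at 90% identity over 50% of the length.

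The genes, their step groups and the other lists were chosen with earlier results of these data known. Every gene of the 30 is described. Of the other lists, called genes are named and otherwise the gene with the smallest p; AUS1, PDR11, HAP1, ROX1 and PDR5 were added by role after values were seen. Medians of lists are descriptions without a test. Alternatives were other pseudocounts, filters, scalings, row classes, moderation and threshold, the replicate number as a block, and each library left out. Python 3.11.15, R 4.3.3 and limma 3.58.1 were used.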

Additional observations from a re-analysis of the deposited data

How the results depend on the processing

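The count of the 30 genes called higher was 0 as reported, 1 (ERG26) with a mean of at least 10 FPKM, with robust moderation and with the replicate block, 2 (ERG11 and ERG13) after quantile normalization, and 4 (ERG26, ERG9, MVD1 and ERG27) at an adjusted p under 0.1, and it ranged from 0 to 4 with a library left out. The 4 came without Asr1-RING replicate 1 (ERG26, ERG9, ERG27 and CYB5). None of the 30 was called lower under any of the 18 alternatives, and 20 of the 30 kept their sign in all of those that tested them. The early median was 0.00 with median centring and -0.05 with quantile normalization of ORF rows alone, an alternative chosen after seeing the data. The late median was -0.07, 0.28 and -0.05 with median centring, quantile normalization and quantile normalization of ORF rows alone, and ranged from -0.01 to 0.06 with a library left out. The late minus early difference of medians, -0.07 as reported, was 0.22 after quantile normalization and -0.01 with ORF rows alone normalized in that way; the cause was not tested. Over all rows, 130 were higher and 341 lower as reported, against 21 and 182 without a filter, 216 higher with a mean of at least 10 FPKM, 70 higher with median centring, 307 higher after quantile normalization, 222 and 73 with ORF rows scaled to an equal sum, 36 and 23 with ORF rows alone, 16 and 17 with those quantile normalized, 176 lower with identical rows counted once, 256 higher with robust moderation, 237 higher with the replicate block and 449 higher at an adjusted p under 0.1. With a library left out, 16 to 781 were higher and 197 to 553 lower. The labels do not say that replicate numbers mark pairs, and deviations of same-numbered libraries had a correlation of -0.071 across rows, so the block rests on a shared number only. Leaving out a library leaves 1 sample in a group, which is assumed to vary like the others.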
